A study of Mus musculus with 8 samples.

Results

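Histone lysine methylases and demethylases are the enzymes that add methyl groups to, or remove them from, lysines of the histone tails around which DNA is wrapped. They were taken from the deposited gene table by symbol: every gene whose symbol is Kdm, Kmt or Setd followed by a digit, and Ezh1, Ezh2, Nsd1, Dot1l, Ehmt1, Ehmt2, Suv39h1 and Suv39h2, without rows on chromosome Y. This gave 39 genes of 13708, of which 22 encode methylases or related SET domain proteins and 17 encode demethylases. The rule uses symbols and chromosome but no measured value, and all 39 passed the filter on low counts.

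Methylation of lysine 4 of histone H3 (H3K4) marks active promoters and enhancers, H3K36 and H3K79 methylation mark transcribed genes, and H3K9 and H3K27 methylation mark silenced chromatin. Methylases of the SET domain and DOT1L families write these marks. The amine oxidases Kdm1a and Kdm1b and the Jumonji demethylases, which need iron, oxygen and 2-oxoglutarate, remove them. In blood stem cells the balance between the Polycomb enzymes Ezh1 and Ezh2 and the Trithorax enzyme Kmt2a is known to bear on self-renewal, and several of these genes are mutated in leukaemia.

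The libraries are mRNA-seq of LSK cells, a bone marrow fraction sorted for c-Kit and Sca-1 and against lineage antigens, which holds stem and multipotent progenitor cells. The db/db group had 4 samples of B6.BKS(D)-Leprdb/J mice, homozygous for the mutated leptin receptor gene, which become obese and diabetic. The db/m group had 4 samples of B6.BKS(D)-Leprdb/+ mice, heterozygous for it. All 8 were labelled as taken 6 months after diabetes, no treatment is named, and the genotype label set the groups because every sample title carries the db/m name. The labels do not say that each library came from its own mouse, so p-values reflect only how these samples vary, and part of that may be technical. The mutation is present in every tissue, so effects within LSK cells and effects of the surrounding diabetic animal cannot be told apart.

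Counts in the table came to between 27640853 and 42806327 per library. Kit, one of the sort antigens, was at 621 to 1054 CPM in db/db and 563 to 799 CPM in db/m, while Ly6a, which encodes the Sca-1 antigen, was at 91.7 to 178 CPM in db/db and 317 to 568 CPM in db/m. Markers of other cells were present, and some of them differed by group. The summed level of 10 plasma cell markers was 1646 to 6950 CPM in db/db and 5228 to 19703 CPM in db/m. That of 8 erythroid markers was 1561 to 4251 CPM in db/db and 825 to 1115 CPM in db/m. Most of the erythroid sum in every library was Car2 alone, at 1228 to 2219 CPM in db/db and 521 to 884 CPM in db/m. Intergenic reads made up 5.15% to 11.9% of uniquely mapped reads in db/db libraries and 12.2% to 26.5% in db/m libraries. Sums of 6 megakaryocyte markers were 1500 to 2381 CPM in db/db and 593 to 1132 CPM in db/m. Those of 6 T and NK cell markers were 176 to 224 CPM in db/db and 232 to 427 CPM in db/m. Most of the T and NK sum in every library was Nkg7, whose groups overlapped. Of these 6 markers 5 had negative log2 fold changes, while that of Klrb1c was positive (0.38). The 7 granulocyte-monocyte markers, 2076 to 5462 CPM in db/db and 3176 to 13420 CPM in db/m, overlapped in their sum, and 7 of 7 had negative log2 fold changes. Sums of B cell, neutrophil and stroma markers overlapped as well. So did those of 5 macrophage markers, all with positive log2 fold changes, at 85.2 to 2576 CPM in db/db and 456 to 789 CPM in db/m. The 6 stem and multipotent progenitor markers, 5 of them positive, summed to 1560.5 to 1994.7 CPM in db/db and 1672.4 to 1934.6 CPM in db/m. Most of that sum was Cd34, the negative one (means of 769 CPM in db/db and 935 CPM in db/m), and Flt3 (513 and 511 CPM). Hlf, Mecom, Procr and Slamf1, which weigh less in the sum, had log2 fold changes of 0.56 to 0.71, with overlapping groups. No label names a batch, and 3 alternative fits bear on these differences. They were 1 with the plasma cell level added, 1 with the erythroid level added, and 1 without db/m replicates 1, 2 and 4. Those libraries had the highest intergenic share, and db/m replicate 3 was then the only db/m library. The level added was the mean log2 CPM of the markers, not their sum. Centred on the 8 libraries, the erythroid level of db/db replicate 2 (-0.67) lay below db/m replicates 1, 3 and 4 (-0.46, -0.23 and -0.59). Lepr itself was at 0.412 to 2.66 CPM in db/db and 0.0973 to 1.27 CPM in db/m, too low to check the genotype labels. In bulk samples, fewer cells of a type and less RNA per cell cannot be told apart.

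The promoters of 3 members, Kdm3a and the pair Ezh1 and Ezh2, are given. They were not picked by p-value alone, as Kmt2c, not shown, had a smaller p than Ezh2. Each window is the 300 bases from 250 before to 50 after the gene's start, 5′ to 3′ on the gene's own strand, from RefSeq on GRCm38.p6. Each start is also the 5′ end of the deposited gene model. Capitals mark CCAAT on either strand, the box bound by NF-Y, and ACGTG or GCGTG on either strand, the core bound by hypoxia-inducible factors, and no marked stretch overlaps another. Kdm3a, whose window at chr6:71632868-71633167 lies on the minus strand, holds 2 CCAAT boxes and 1 hypoxia core, and Kdm3a is known as a gene that hypoxia-inducible factors switch on.
Kdm3a: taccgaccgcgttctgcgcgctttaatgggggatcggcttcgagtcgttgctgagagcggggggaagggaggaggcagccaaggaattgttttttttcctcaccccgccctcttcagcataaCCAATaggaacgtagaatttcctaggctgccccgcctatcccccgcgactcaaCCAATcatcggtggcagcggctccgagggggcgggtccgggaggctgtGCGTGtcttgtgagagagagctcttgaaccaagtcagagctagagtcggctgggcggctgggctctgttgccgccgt
Ezh1: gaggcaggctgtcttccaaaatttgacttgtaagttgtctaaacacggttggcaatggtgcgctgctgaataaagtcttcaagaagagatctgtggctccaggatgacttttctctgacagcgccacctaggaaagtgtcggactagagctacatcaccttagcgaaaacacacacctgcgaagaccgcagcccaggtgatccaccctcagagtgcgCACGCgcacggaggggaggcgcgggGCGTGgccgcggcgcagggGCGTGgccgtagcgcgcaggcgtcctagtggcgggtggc
Ezh2: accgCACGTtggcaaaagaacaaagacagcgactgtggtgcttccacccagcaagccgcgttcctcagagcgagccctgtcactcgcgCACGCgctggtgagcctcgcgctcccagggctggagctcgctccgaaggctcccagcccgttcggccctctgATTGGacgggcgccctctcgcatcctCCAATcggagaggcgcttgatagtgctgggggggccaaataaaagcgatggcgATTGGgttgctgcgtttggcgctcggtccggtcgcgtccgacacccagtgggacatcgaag
The window of Ezh1 at chr11:101226414-101226713, minus strand, holds 0 CCAAT boxes and 3 hypoxia cores. That of Ezh2 at chr6:47594981-47595280, minus strand, holds 3 CCAAT boxes and 2 hypoxia cores. RefSeq windows were found for 29 of the 39 members, 28 of them within 100 bases of the deposited gene start. CCAAT occurred in 10 of the 29 windows (34.5%) and in 37.4% of all 32851 windows, and the hypoxia core in 20 of the 29 (69.0%) and in 43.8% of all windows. The members' windows held a median of 28 CG pairs, from 0 to 65, against a median of 7 over all windows. Every form of the hypoxia core itself holds a CG pair, and windows of like CG content were not compared. The shares therefore do not tell the core apart from CG content. Matches of this length describe the letters only and mark no site of binding.

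Setting db/db against db/m asks whether the enzymes of histone lysine methylation are expressed differently in LSK cells after long-standing diabetes. None of the 39 members (0) passed the quasi-likelihood test of edgeR at an adjusted p under 0.05, where 5 of all 13708 genes (0.0365%) did, 0.0146% higher and 0.0219% lower in db/db. At an unadjusted p under 0.05 there were 3 members, Kdm3a, Ezh1 and Kmt2c, all higher in db/db. That is 7.69% of the members, below the 15.3% of all genes tested. In the higher direction alone the background was 7.78%, and in the lower direction, where 0 members stood out, it was 7.54%. The log2 fold change was positive for 21 members (53.8%, against 51.4% of all genes) and negative for 18. Its median was 0.039 over the members and 0.0094 over all genes. Median absolute log2 fold changes were 0.077 for the members and 0.20 for all genes.

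Intervals limit how large a difference these data allow. The 95% interval of the fold change lay within 2-fold either way for 37 of 39 members, against 67.5% of all genes, and within 1.5-fold for 29 members, against 42.2% of all genes. The exceptions to the 2-fold limit were Kdm4d, which is barely expressed, and Kdm6b, which differed most between libraries of the same group among well-detected members. Members are mostly well expressed, and among genes of 4 to 8 mean log2 CPM, which take in 35 of them, the median SE of the log2 fold change was 0.14 for members and 0.15 for all 8198 genes.

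**Figure D1:**
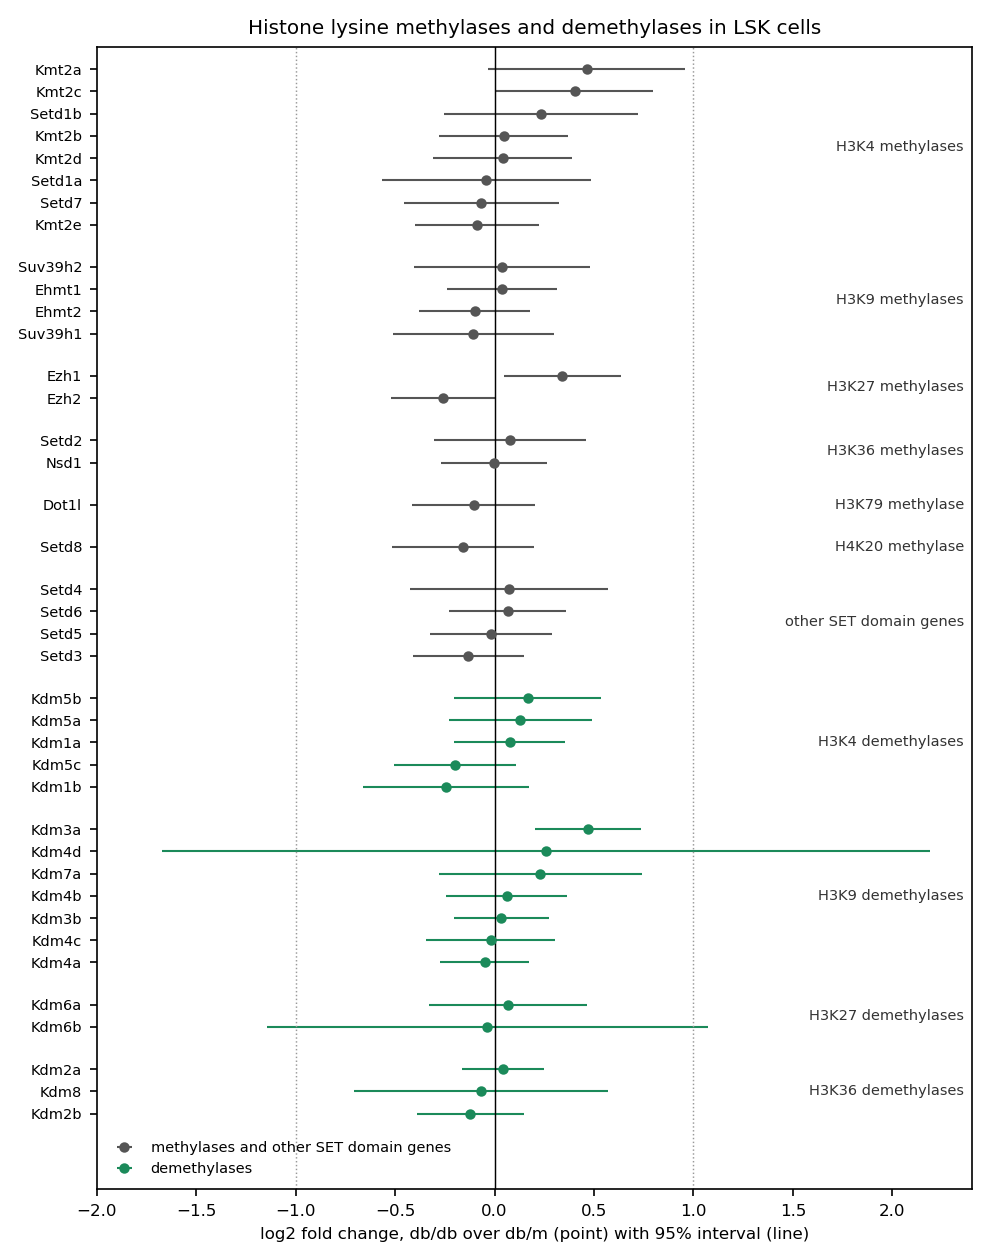
Log2 fold change of db/db over db/m (x axis) for each of the 39 members (y axis, grouped by the lysine they act on), with points for the fitted value, lines for its 95% interval, and dotted lines at a 2-fold change. The interval leaves out 0 for Kdm3a, Ezh1 and Kmt2c, and reaches past 2-fold for Kdm4d and Kdm6b.

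Kdm3a, a Jumonji demethylase that removes mono- and dimethylation from H3K9, was the member with the smallest p. It had 113, 131, 139.9 and 118 CPM in the db/db libraries, against 106, 82.6, 89.9 and 83.4 CPM in the db/m libraries. Every db/db library lay above every db/m library, and db/m replicate 1 came closest to the db/db libraries. Its means were 125 ± 12.2 CPM in db/db and 90.5 ± 11.1 CPM in db/m (SD, n = 4 each). The log2 fold change was 0.47 ± 0.12 (SE), with a 95% interval of 0.20 to 0.74. The unadjusted p was 0.00298 and the adjusted p 0.116 (quasi-likelihood test of edgeR), so it did not pass. Among the members it alone had groups that did not overlap, 1 of 39 (2.56%), where 9.03% of all genes did (4.50% higher and 4.53% lower in db/db). In the authors' deposited table, whose p-values are those of a likelihood ratio test, Kdm3a has a false discovery rate of 0.0458 and is the only member under 0.05 (2.56% of the members, against 4.28% of all genes, or 2.08% in the higher direction). DESeq2 also called it, with an adjusted p of 0.0254, among 767 of all 13708 genes (5.60%). Over the 20 alternative fits its log2 fold change ran from 0.38 to 0.56, its unadjusted p was under 0.05 in 20 of 20, and its adjusted p ran from 0.0254 to 0.492. Of these 20, the fit without a filter repeats the main fit, since the filter removed no gene. With the erythroid level as a covariate the log2 fold change of Kdm3a was 0.38 (adjusted p = 0.273), and with the plasma cell level it was 0.49 (adjusted p = 0.492). In mm10 the gene lies on the minus strand at chr6:71588970-71632917.

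Of the 7 H3K9 demethylases 5 were higher and 2 lower in db/db by fitted value, their median log2 fold change was 0.061, and Kdm3a was the only one with an unadjusted p under 0.05. Kdm3b, the nearest relative of Kdm3a, was at 89.99 ± 7.14 CPM in db/db and 87.8 ± 7.86 CPM in db/m, with a log2 fold change of 0.035 and a 95% interval of -0.20 to 0.27. Kdm4a, which also removes H3K36 trimethylation, was at 54.7 ± 3.93 CPM in db/db and 56.6 ± 2.08 CPM in db/m, Kdm4b at 88.9 ± 11.8 CPM in db/db and 85.3 ± 12.1 CPM in db/m and Kdm4c at 50.4 ± 5.41 CPM in db/db and 51.1 ± 8.71 CPM in db/m. Their log2 fold changes were -0.05, 0.061 and -0.02 in that order, and libraries of the groups overlapped in all 3. Kdm7a, a PHD-finger demethylase of H3K9 and H3K27, had 33.1, 34.7, 34.3 and 32.4 CPM in the db/db libraries, against 41.04, 32.6, 17.96 and 23.1 CPM in the db/m libraries. The db/db libraries lay close together, inside the wider span of the db/m libraries, and the log2 fold change of 0.23 ran from 0.052 (without db/m replicate 3) to 0.45 (without db/m replicate 1) when 1 library was left out. It was 0.79 with plasma cell level in the fit and 0.91 without db/m replicates 1, 2 and 4. The last value sets db/db against db/m replicate 3 alone, the lowest of all 8 libraries for Kdm7a. Kdm4d had 0.211, 0.973, 0.0970 and 1.69 CPM in the db/db libraries, against 1.20, 0.267, 0.327 and 0.650 CPM in the db/m libraries. These rest on 8, 32, 4 and 47 reads in db/db and 37, 7, 12 and 21 reads in db/m. The 95% interval of -1.67 to 2.19 on the log2 scale allows a large change either way. The Kdm4 genes are close relatives, and a read shared between them would be counted in a way the sources used here do not give.

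**Figure D2:**
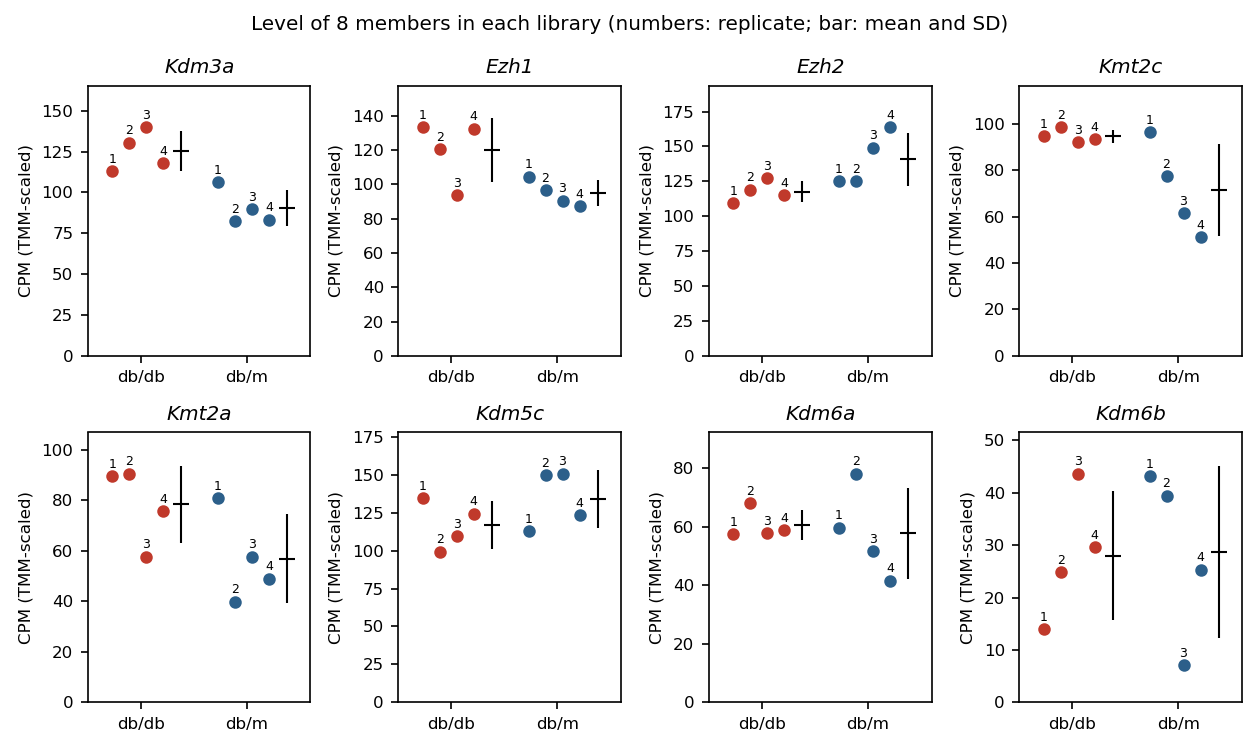
TMM-scaled CPM (y axis, from 0) of 8 members in the 4 db/db libraries (red) and the 4 db/m libraries (blue), with replicate numbers at the points and the mean and SD as a black bar. Kdm3a is the only one of the 8 whose groups do not overlap, and Kdm6b runs from 7.06 to 43.6 CPM over the 8 libraries.

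Ezh1 and Ezh2 are alternative catalytic subunits of Polycomb repressive complex 2 (PRC2), which methylates H3K27. Ezh2 is known to prevail in dividing cells and Ezh1 in resting ones. Ezh1 had 133, 121, 93.5 and 132 CPM in the db/db libraries, against 104, 96.5, 90.6 and 87.2 CPM in the db/m libraries. The groups overlapped through 1 library: db/db replicate 3 lay below db/m replicates 1 and 2 and above the other db/m libraries. The means were 119.997 ± 18.6 CPM in db/db and 94.7 ± 7.58 CPM in db/m (SD, n = 4 each), with a log2 fold change of 0.34 ± 0.13 (SE), an unadjusted p of 0.0266 and an adjusted p of 0.257 by edgeR. Ezh2 differed the other way, with 109, 119, 127 and 115 CPM in the db/db libraries, against 125, 125, 149 and 164 CPM in the db/m libraries. Here db/db replicate 3 was the highest of its group and lay above db/m replicates 1 and 2. Means were 118 ± 7.67 CPM in db/db and 141 ± 19.04 CPM in db/m, with a log2 fold change of -0.26 ± 0.12, an interval of -0.52 to 0.0031, an unadjusted p of 0.0523 and an adjusted p of 0.333 by edgeR. Neither gene passed the test, and the adjusted p over the 20 alternatives was never below 0.098 for Ezh1 or 0.222 for Ezh2. Both lie on minus strands in mm10, Ezh1 at chr11:101191115-101226463 and Ezh2 at chr6:47530274-47595030.

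The ratio of the 2 genes within a library does not depend on the scaling between libraries. The log2 ratio of Ezh1 to Ezh2 CPM was 0.29, 0.019, -0.45 and 0.21 in db/db replicates 1 to 4, against -0.26, -0.38, -0.72 and -0.91 in db/m replicates 1 to 4. All db/m libraries held more Ezh2 than Ezh1 reads, as did db/db replicate 3, while the other db/db libraries held more Ezh1 reads. The mean was 0.017 ± 0.33 in db/db and -0.57 ± 0.30 in db/m (SD, n = 4 each). The difference of 0.58 had a two-sided exact permutation p of 0.0857, and 0.429 after Benjamini-Hochberg adjustment over 10 such pairs, in a design whose smallest possible p is 0.0286. The difference was 0.74 without db/db replicate 3 and 0.47 without db/m replicate 4, the highest and lowest values when 1 library was left out. Proliferation genes, with which Ezh2 is known to move, also differed between libraries: the summed level of Mki67, Top2a, Ccnb1, Pcna and Mcm5 was 1218, 1207, 1775 and 1310 CPM in db/db and 1237, 1360, 1992 and 1712 CPM in db/m. The 2 libraries with the highest sums were replicate 3 of each group, and their part in the ratio was not tested.

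Of 11 other PRC2 genes listed 9 were in the table, 3 positive and 6 negative, with a median log2 fold change of -0.028. Among these 9, 1 (11.1%, against 15.3% of all genes) had an unadjusted p under 0.05. That gene was Eed, the subunit that binds trimethylated H3K27, with 88.4, 89.6, 81.6 and 80.8 CPM in the db/db libraries, against 107, 113, 97.8 and 95.2 CPM in the db/m libraries. Each db/db library lay below each db/m library, and Eed was the only 1 of the 9 without overlap (11.1%, against 9.03% of all genes). Its means were 85.1 ± 4.53 CPM in db/db and 103 ± 8.36 CPM in db/m. The log2 fold change was -0.28, and the adjusted p of 0.226 by edgeR missed the threshold. Among 18 genes of Polycomb repressive complex 1, which reads H3K27 methylation and ubiquitinates histone H2A, 11 were positive and 7 negative, with a median of 0.080.

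The enzymes that remove H3K27 methylation are Kdm6a and Kdm6b. Kdm6a, encoded on the X chromosome, had 57.5, 68.2, 57.8 and 58.8 CPM in the db/db libraries, against 59.8, 78.1, 51.6 and 41.6 CPM in the db/m libraries. The db/m libraries spanned the db/db ones, and the log2 fold change was 0.068 with an interval of -0.33 to 0.47. Kdm6b, which is known to be induced quickly by inflammatory signals, had 13.9, 24.8, 43.6 and 29.6 CPM in the db/db libraries, against 43.2, 39.4, 7.06 and 25.3 CPM in the db/m libraries. Its values differed more within each group than between groups: the coefficient of variation was 43.95% in db/db and 56.96% in db/m, against member medians of 12.1% and 14.2%. Replicate 3 was the highest library of db/db and the lowest of db/m. The log2 fold change of -0.036 had an interval of -1.14 to 1.07, and became 1.98 with plasma cell level in the fit and 1.99 with db/m replicates 1, 2 and 4 left out. The last fit has db/m replicate 3, the lowest of all 8 libraries for Kdm6b, as its only db/m library. Of the db/m libraries, that replicate alone had a plasma cell level (-0.093, centred) within the range of db/db (-1.72 to 0.026). The 2 values are therefore not independent.

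The H3K4 methylases are the Kmt2 and Setd1 enzymes of the COMPASS family and Setd7. Of the 8 members, 5 were higher and 3 lower in db/db by fitted value, with a median log2 fold change of 0.044. Kmt2a (MLL1), a Trithorax enzyme that maintains Hox gene expression and is rearranged in leukaemia, had 89.5, 90.4, 57.6 and 75.7 CPM in the db/db libraries, against 80.8, 39.8, 57.6 and 48.9 CPM in the db/m libraries. Its level in db/db replicate 3 was nearly that of db/m replicate 3, and db/m replicate 1 lay above db/db replicates 3 and 4. Kmt2c (MLL3), an enhancer H3K4 monomethylase, had 94.5, 98.5, 91.95 and 93.4 CPM in the db/db libraries, against 96.3, 77.3, 61.4 and 51.1 CPM in the db/m libraries. The db/db libraries stood close together, db/m replicate 1 lay among them and the other db/m libraries lay below. Log2 fold changes were 0.46 ± 0.22 for Kmt2a (unadjusted p = 0.0645) and 0.40 ± 0.18 for Kmt2c (unadjusted p = 0.0461). Adjusted p from edgeR were 0.359 and 0.317 in that order. Leaving out 1 library gave 0.33 (without db/m replicate 2) to 0.68 (without db/m replicate 1) for Kmt2a, and 0.27 (without db/m replicate 4) to 0.58 (without db/m replicate 1) for Kmt2c. Both genes are long, with deposited lengths of 16439 and 16820 bases. Kmt2d (MLL4), longer still at 19827 bases, was at 69.3 ± 10.8 CPM in db/db and 67.3 ± 10.8 CPM in db/m, with a log2 fold change of 0.042 and an interval of -0.31 to 0.39.

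No other member of this family had an unadjusted p under 0.05. Kmt2b (MLL2), a promoter H3K4 methylase, was at 22.3 ± 1.91 CPM in db/db and 21.6 ± 2.60 CPM in db/m, and Kmt2e (MLL5), a family member of little or no catalytic activity, at 173 ± 2.22 CPM in db/db and 184 ± 36.1 CPM in db/m. Setd1a and Setd1b, which carry out most H3K4 trimethylation, were the lowest H3K4 methylases per length. Setd1a was at 7.01 ± 1.39 CPM in db/db and 7.22 ± 1.04 CPM in db/m. Setd1b had 6.50, 6.23, 5.85 and 5.06 CPM in the db/db libraries, against 5.19, 5.18, 4.63 and 5.11 CPM in the db/m libraries, with db/db replicate 4 below db/m replicates 1, 2 and 4. Setd7, which methylates H3K4 and several other proteins, was at 15.8 ± 2.76 CPM in db/db and 16.6 ± 1.46 CPM in db/m. The log2 fold changes of these 5 lay between -0.088 and 0.23. All 14 genes of the COMPASS and MLL partner list were in the table, 7 positive and 7 negative with a median of -0.024. Of these, 0 had an unadjusted p under 0.05 by edgeR, against 15.3% of all genes. The smallest p among them was that of Ash2l, a core COMPASS subunit, at 127 ± 3.94 CPM in db/db and 147 ± 11.8 CPM in db/m (unadjusted p = 0.0569 by edgeR). Ash2l was the only 1 of the 14 with groups that did not overlap (7.14%, against 9.03% of all genes).

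H3K4 demethylases showed no common direction, with 3 of 5 positive. Kdm1a (LSD1), an amine oxidase that works in the CoREST repressor complex and is required for blood cell maturation, had 156, 153, 159 and 124 CPM in the db/db libraries, against 136, 128, 166 and 131 CPM in the db/m libraries. The groups overlapped, and its interval of -0.20 to 0.35 on the log2 scale lay within 1.5-fold either way. Kdm1b (LSD2) had 29.6, 26.4, 16.1 and 28.9 CPM in the db/db libraries, against 29.5, 30.2, 29.3 and 30.7 CPM in the db/m libraries. The db/m libraries were nearly equal, while db/db replicate 3 lay far below the rest of db/db. The log2 fold change of -0.24 ± 0.19 (SE) was -0.078 without that library and 0.025 with the erythroid level as a covariate. Both that level and the erythroid marker sum (4251 CPM) were highest in db/db replicate 3, and their part in the Kdm1b value was not tested. Among 11 genes of the CoREST and repressor list, 6 were positive and 5 negative. Gfi1b, a repressor of erythroid and megakaryocyte cells that recruits Kdm1a, was the only one with an unadjusted p under 0.05 (9.09%, against 15.3% of all genes). It was at 97.5 ± 28.04 CPM in db/db and 52.6 ± 6.08 CPM in db/m, with an adjusted p of 0.0861 by edgeR.

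Kdm5a, Kdm5b and Kdm5c are Jumonji demethylases of di- and trimethylated H3K4. Kdm5a had 135, 179, 171 and 169.7 CPM in the db/db libraries, against 198, 141, 123 and 136 CPM in the db/m libraries. Kdm5b, which restrains differentiation in several stem cell types, had 137, 136, 80.7 and 116 CPM in the db/db libraries, against 109, 97.5, 96.6 and 116 CPM in the db/m libraries. Kdm5c had 135, 99.4, 109 and 124 CPM in the db/db libraries, against 113, 149, 151 and 123 CPM in the db/m libraries. The groups overlapped in all 3, and db/db replicate 3 was again apart for Kdm5b, at 80.7 CPM against 116 to 137 CPM in the other db/db libraries. Log2 fold changes were 0.13 ± 0.16 for Kdm5a, 0.17 ± 0.17 for Kdm5b and -0.20 ± 0.14 for Kdm5c (SE), none of which passed the test by edgeR (adjusted p 0.756, 0.683 and 0.539). The log2 fold change of Kdm5b was 0.31 without db/db replicate 3, 0.082 without db/db replicate 1, 0.089 without db/db replicate 2 and 0.43 with erythroid level in the fit. Leaving out 1 library moved Kdm5a to between 0.037 (db/m replicate 3) and 0.29 (db/m replicate 1).

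Kdm5c, Kdm6a and Suv39h1 are encoded on the X chromosome. Kdm5c and Kdm6a are known to escape X inactivation and have Y-linked relatives, which the choice of genes leaves out. These relatives were read in all 8 libraries, Kdm5d at 18.4 to 37.9 CPM in db/db and 19.7 to 35.99 CPM in db/m and Uty at 35.2 to 43.2 CPM in db/db and 22.4 to 37.4 CPM in db/m, so no library lacked Y-linked transcripts. Reads shared between the X-linked and Y-linked copies could have been counted with either.

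Among the 4 H3K9 methylases 2 were higher and 2 lower in db/db by fitted value, with a median log2 fold change of -0.031. Suv39h1, which trimethylates H3K9 in heterochromatin, had 133, 128, 162 and 109 CPM in the db/db libraries, against 115, 117, 189 and 151 CPM in the db/m libraries. Its highest library was db/m replicate 3, and the other db/m libraries overlapped db/db. Its relative Suv39h2 was at 17.4 ± 3.30 CPM in db/db and 16.9 ± 2.97 CPM in db/m. Ehmt1 (GLP) and Ehmt2 (G9a) work as a pair in H3K9 dimethylation. Ehmt1 was at 129 ± 15.1 CPM in db/db and 125 ± 15.1 CPM in db/m. Ehmt2 had 161, 117, 122 and 131 CPM in the db/db libraries, against 125, 154, 141 and 149 CPM in the db/m libraries, the highest being db/db replicate 1. The interval of the log2 fold change was -0.24 to 0.32 for Ehmt1 and -0.38 to 0.18 for Ehmt2, both within 1.5-fold. Of 10 HP1 and H3K9 partner genes, 6 were positive and 4 negative with a median of 0.017, and 3 (30.0%, against 15.3% of all genes) had an unadjusted p under 0.05. These were the HP1 gene Cbx1, at 46.9 ± 3.32 CPM in db/db and 59.1 ± 4.88 CPM in db/m, Atf7ip, which stabilizes the H3K9 methylase Setdb1, at 103 ± 8.50 CPM in db/db and 81.9 ± 7.77 CPM in db/m, and Zfp644, a zinc finger partner of G9a and GLP, at 64.5 ± 10.9 CPM in db/db and 47.6 ± 7.82 CPM in db/m. Groups did not overlap for Cbx1 and Atf7ip, 2 of 10 genes (against 9.03% of all genes), and none of the 3 passed the adjusted threshold by edgeR (0.190, 0.196 and 0.229).

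Methylases that act on transcribed genes had overlapping groups. Nsd1, which dimethylates H3K36, had 72.4, 76.03, 74.9 and 66.03 CPM in the db/db libraries, against 78.1, 68.3, 82.4 and 61.1 CPM in the db/m libraries. Its db/db libraries fell inside the range of db/m, and the log2 fold change of -0.0022 had an interval of -0.27 to 0.26. Setd2, the H3K36 trimethylase, had 81.3, 99.99, 112 and 86.7 CPM in the db/db libraries, against 121, 83.02, 72.5 and 83.7 CPM in the db/m libraries. Library db/m replicate 1 was the highest and db/m replicate 3 the lowest of all 8 for Setd2. Dot1l, the H3K79 methylase required in MLL-rearranged leukaemia, had 45.1, 51.2, 55.6 and 50.1 CPM in the db/db libraries, against 61.8, 62.3, 48.5 and 44.7 CPM in the db/m libraries. The log2 fold changes were 0.077 for Setd2 and -0.10 for Dot1l. Among 10 genes of the Dot1l and super elongation complexes, 2 (20%, against 15.3% of all genes) had an unadjusted p under 0.05, in opposite directions. Mllt3 (AF9), a reader that recruits Dot1l, was at 81.2 ± 15.7 CPM in db/db and 50.5 ± 16.6 CPM in db/m, and Ell2, an elongation factor abundant in plasma cells, at 48.6 ± 11.8 CPM in db/db and 83.4 ± 25.04 CPM in db/m, with adjusted p of 0.229 and 0.177 by edgeR. The plasma cell marker sum, 1646 to 6950 CPM in db/db and 5228 to 19703 CPM in db/m, moved the same way as Ell2, and its part was not tested.

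No H3K36 demethylase or remaining SET domain gene had an unadjusted p under 0.05. Kdm2a, which binds unmethylated CpG islands, was the member with the tightest interval, -0.17 to 0.25, at 138 ± 3.07 CPM in db/db and 134 ± 9.18 CPM in db/m. Kdm2b, which brings a Polycomb complex to CpG islands, had 80.97, 73.4, 76.9 and 64.9 CPM in the db/db libraries, against 87.7, 78.2, 88.7 and 67.9 CPM in the db/m libraries. The groups overlapped, with a log2 fold change of -0.12. Kdm8, a Jumonji protein first described as an H3K36 demethylase, ran from 10.6 to 28.3 CPM within db/m alone. Kdm8 was highest of all 8 libraries in db/m replicate 3, the only db/m library left without db/m replicates 1, 2 and 4. Its log2 fold change of -0.068 was -0.92 with plasma cell level in the fit (unadjusted p = 0.0198 and adjusted p = 0.444 by edgeR, against an adjusted p of 0.295 to 0.989 over its 20 alternatives) and -0.72 without db/m replicates 1, 2 and 4. Setd8, now called Kmt5a, monomethylates H4K20 and is known to peak before cell division. It had 113, 99.9, 149.8 and 99.9 CPM in the db/db libraries, against 105, 136, 148 and 128 CPM in the db/m libraries. Replicate 3 was the highest library of each group for Setd8, as it was for the summed level of the proliferation genes above, though not for each of those genes. Setd3, an actin histidine methylase, had 78.8, 90.3, 99.6 and 77.3 CPM in the db/db libraries, against 94.8, 111, 87.8 and 86.1 CPM in the db/m libraries. Setd4 was at 9.24 ± 1.04 CPM in db/db and 8.78 ± 2.04 CPM in db/m, Setd5 at 56.8 ± 6.93 CPM in db/db and 57.5 ± 8.59 CPM in db/m and Setd6 at 35.2 ± 3.36 CPM in db/db and 33.6 ± 3.99 CPM in db/m. Log2 fold changes of these 4 lay between -0.13 and 0.073, with overlapping groups.

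**Figure D3:**
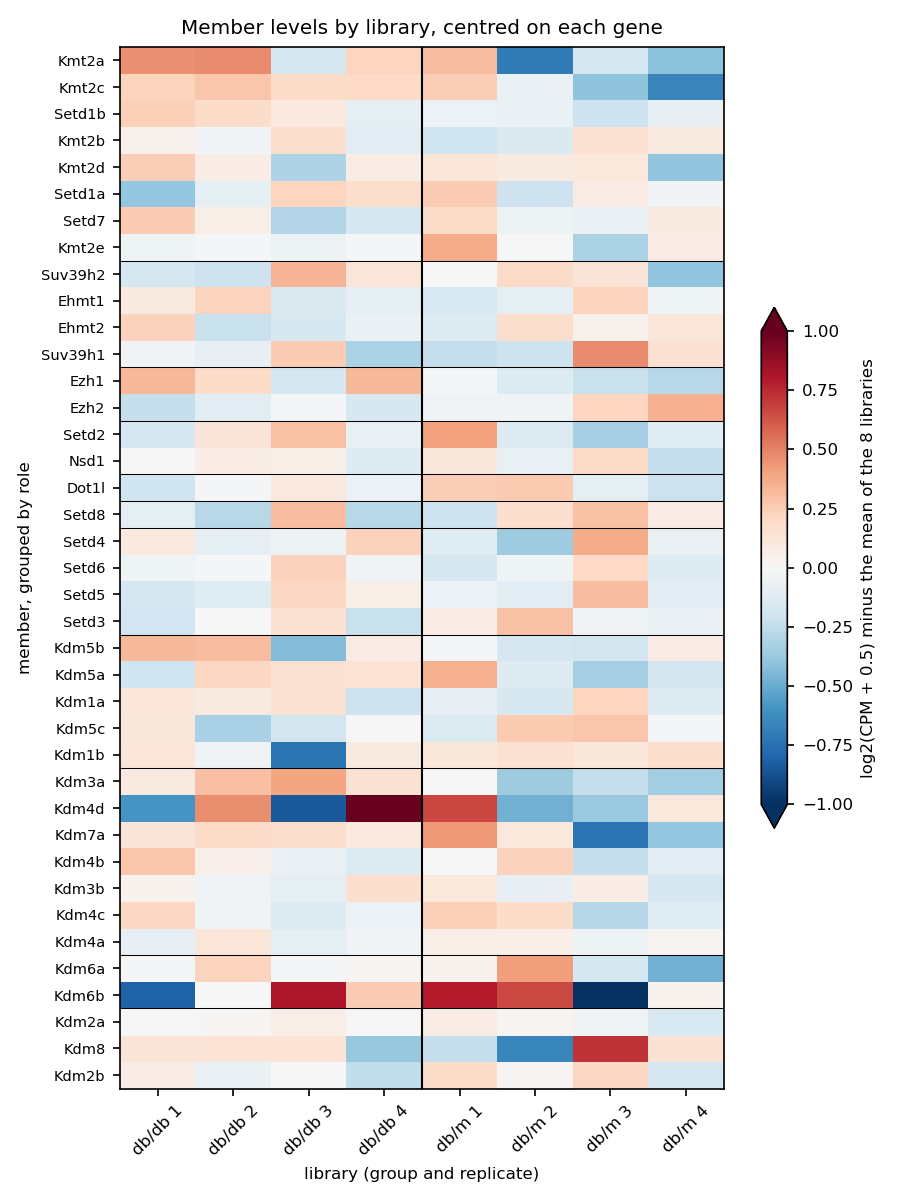
Levels of the 39 members (rows, grouped by role) in each library (columns, db/db then db/m), as log2(CPM + 0.5) minus the gene's mean over the 8 libraries, with the colour scale ending at 1 either way. No block of rows separates the 4 db/db columns from the 4 db/m columns, and Kdm4d and Kdm6b hold the deepest colours.

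Extremes were spread over libraries of both groups. Library db/m replicate 3 had the highest level of 8 members and the lowest of 8 others, and db/m replicate 4 the lowest of 9. Each other library was highest for 2 to 7 members and lowest for 3 to 5. The summed CPM of all 39 members ran from 2868 to 3011 in db/db and from 2755 to 3066 in db/m, so the total output of the family overlapped between groups. Member reads made up 0.288% to 0.313% of counts in db/db libraries and 0.269% to 0.307% in db/m libraries. Kmt2c and Kdm7a were steady within db/db, with coefficients of variation of 2.97% and 3.14%, and spread within db/m, at 27.6% and 35.7%. Kdm1b showed the reverse, at 24.7% in db/db and 2.19% in db/m.

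Ratios within pairs of related members were compared over the same libraries. Among 10 pairs, 0 passed an adjusted p of 0.05 by the exact permutation test, 0 had an unadjusted p under 0.05 and 0 had groups that did not overlap. The log2 ratio of Kmt2a to Kmt2d was 0.17 ± 0.12 in db/db and -0.28 ± 0.43 in db/m (SD, n = 4 each), with a two-sided exact permutation p of 0.0857 and an adjusted p of 0.429. All 4 db/db values lay between 0.079 and 0.35 and db/m replicate 1, at 0.14, lay among them, while the other db/m libraries lay below 0. For Kmt2b to Kmt2c the log2 ratio was -2.09 ± 0.15 in db/db and -1.70 ± 0.56 in db/m, and for Kdm1b to Kdm1a it was -2.58 ± 0.51 in db/db and -2.22 ± 0.19 in db/m. The remaining pairs, Kdm6b and Kdm6a, Suv39h2 and Suv39h1, Ehmt1 and Ehmt2, Kdm5b and Kdm5a, Kdm4a and Kdm4c, and Setd1a and Setd1b, differed by -0.28 to 0.15 between group means, with exact permutation p from 0.314 to 0.971.

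**Figure D4:**
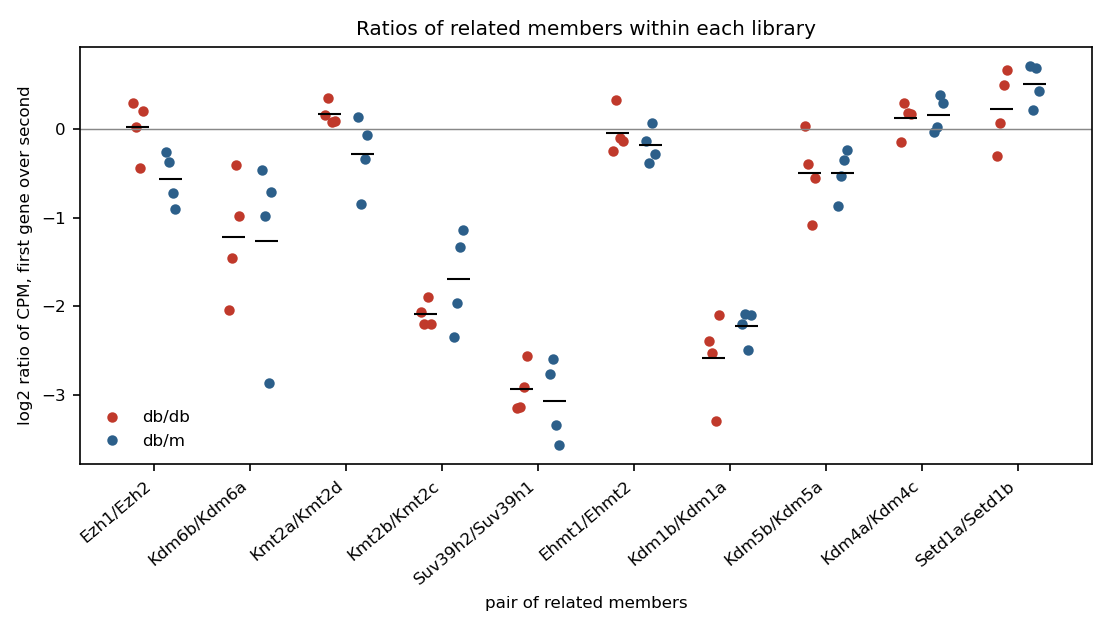
Log2 ratio of CPM of the first gene over the second (y axis) for 10 pairs of related members (x axis), with 1 point per library, db/db in red left of db/m in blue, and a black line at each group mean. The Ezh1/Ezh2 points lie near 0 or above in 3 db/db libraries and at -0.45 in db/db replicate 3, while all 4 db/m points lie between -0.91 and -0.26.

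Levels between genes can be compared per length. Over the 8 libraries Ezh2 was the highest member at 48.5 CPM per kb of deposited gene length, followed by Kdm1a at 47.8, Setd8 at 44.7 and Suv39h1 at 41.6. The lowest were Kdm4d at 0.254 and Setd1b at 0.617 CPM per kb. Within roles, Ezh2 stood above Ezh1 (25.5), Suv39h1 above Suv39h2 (4.004), Kdm1a above Kdm1b (5.53), and Kdm6a (11.2) above Kdm6b (4.27). Kmt2e, at 24.6 CPM per kb, was the highest of the H3K4 group, and Kmt2a, Kmt2b, Kmt2c and Kmt2d lay between 2.58 and 4.94. Ehmt1 and Ehmt2 stood at 24.9 and 33.8, Setd3 at 33.3 and Kdm3a at 21.9 CPM per kb. How the deposited lengths were made is not given in the sources used here, and a gene whose cells use a shorter transcript is understated on this scale.

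**Figure D5:**
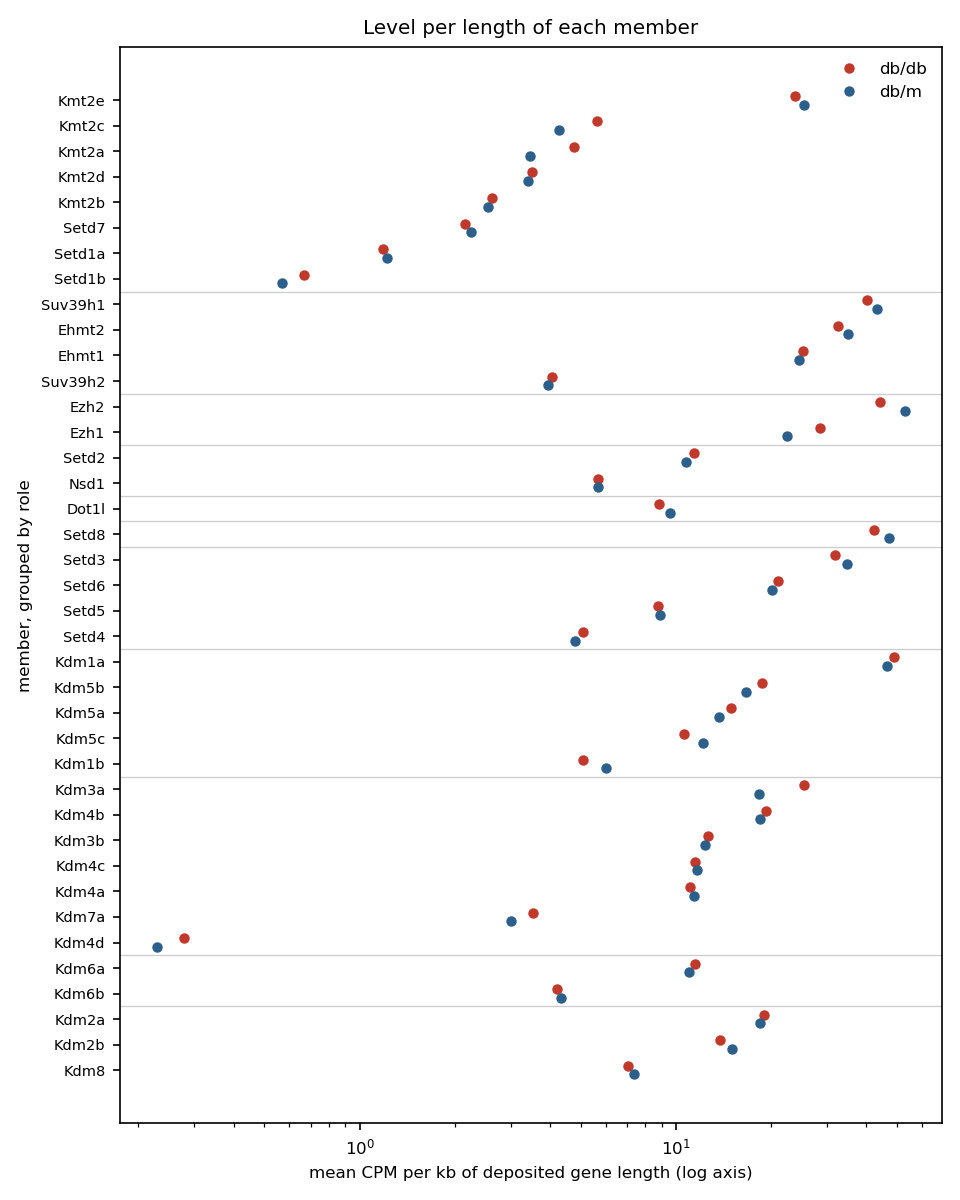
Mean CPM per kb of deposited gene length (x axis, log scale) of each member (y axis, grouped by role), for db/db (red) and db/m (blue). The points of both groups lie close together for nearly every member, over a span from 0.254 (Kdm4d) to 48.5 (Ezh2) CPM per kb on average of the 8 libraries.

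Lysine methylases and Jumonji genes that the choice by symbol leaves out numbered 31 in the table, of 37 listed. Of these 17 were positive and 14 negative, their median log2 fold change was 0.041, and 4 had an unadjusted p under 0.05 (12.9%, against 15.3% of all genes). Mecom, a stem cell transcription factor of the PR domain family, was at 119 ± 29.4 CPM in db/db and 73.01 ± 32.02 CPM in db/m, its relative Prdm16 at 50.2 ± 10.1 CPM in db/db and 36.5 ± 8.95 CPM in db/m and the Y-linked Jumonji gene Uty at 39.4 ± 3.50 CPM in db/db and 29.6 ± 6.14 CPM in db/m. Prdm1 (BLIMP1), the regulator of plasma cells, was at 12.03 ± 7.31 CPM in db/db and 42.8 ± 15.2 CPM in db/m and is itself one of the 10 plasma cell markers, all of which had negative log2 fold changes. None of the 4 passed the adjusted threshold by edgeR, with adjusted p from 0.101 to 0.324.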

How the data were processed

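Per the submitters' processing notes, STAR 2.7.10a, the genome build mm10, featureCounts of Subread 2.0.3, FastQC 0.11.5 and edgeR 3.40.2 were used. The gene annotation is not given in the sources used here, nor is the strand setting. The authors deposited raw counts, log2 CPM, log2 fold changes and p-values for 13708 genes, whose smallest row total is 79. The deposited p-values lie within 2.82e-09 of a likelihood ratio test run on those counts, and the deposited log2 CPM within 4.97e-14 of TMM-scaled values. The authors also deposited a signed fold change, a score with no fixed range, which was not used here. A spreadsheet had turned 21 symbols into dates, and these genes were kept under their positions. Intergenic reads were taken from the deposited mapping summary as a percent of uniquely mapped reads.

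The whole count table was fitted in edgeR 4.0.16 (R 4.3.3) with TMM scaling, filterByExpr (which kept all 13708 genes) and a quasi-likelihood test with genotype as the only term. P-values were adjusted over all genes by Benjamini-Hochberg, with a threshold of 0.05. The biological coefficient of variation was 31.3%. Between any pair of libraries chi-square per gene was at least 47.9, so none differed by as little as sampling noise. CPM values are TMM-scaled and given as mean ± SD, while SE and 95% intervals belong to the fitted log2 fold change. Log2 ratios of related genes were tested by exact two-sided permutation. Of 11 listed pairs, Kmt5c and Kmt5b do not stand under those symbols and were not run. Alternatives used limma 3.58.1 and DESeq2 1.42.0. The edgeR, DESeq2 and limma-voom fits with genotype as the only term were run on simulated counts, and the permutation test on made-up values. The title prefix block, the covariate fits and the test for outlying libraries were not checked in this way.

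Members, gene lists and tests were chosen with earlier results of these data known. Values in every library are given for the 14 members of smallest p, for Ezh1, Ezh2, Dot1l, Kmt2a, Kdm1a, Kdm6a, Kdm6b, Kdm5c, Setd2, Nsd1, Ehmt2 and Suv39h1, and for the 2 highest and 2 lowest members per kb. Of each list of other genes, the gene of smallest p and those with an unadjusted p under 0.05 are named, except for 1 result that is not reported here.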

Additional observations from a re-analysis of the deposited data

Results flagged for a closer look

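In 7 of 78 groups of 4 libraries (8.97%) 1 library lay far from the other 3 of its group for a member, by Dixon's test of the gap over the range at the 95% level. Chance alone marks about 5% of groups. In db/db, replicate 3 was the highest for Setd6 at 40.2 CPM, against 33.2 to 33.96 CPM in the others, and for Kdm2a at 142 CPM, against 135.6 to 136 CPM. Replicate 2 was the highest of db/db for Kdm6a at 68.2 CPM, against 57.5 to 58.8 CPM, and replicate 4 the lowest for Kdm8 at 12.9 CPM, against 18.5 to 18.7 CPM. In db/m, replicate 3 was the lowest for Setd1b at 4.63 CPM, against 5.11 to 5.19 CPM, and the highest for Setd5 at 70.3 CPM, against 52.4 to 54.5 CPM. Replicate 4 was the lowest of db/m for Kmt2d at 51.2 CPM, against 71.9 to 73.4 CPM.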

How the results depend on the processing

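With all 8 libraries the count of members past an adjusted p of 0.05 was 0, and it was 1, Kdm3a, with DESeq2 (1) and the likelihood ratio test (1). It was 0 in the other alternatives. These were scaling by RLE or upper quartile, no filter, a filter of 1 CPM in 4 libraries, limma-voom alone, with quality weights or with a block for the title prefix, a covariate for the plasma cell or erythroid level, leaving out each library in turn, and leaving out db/m replicates 1, 2 and 4 together (chosen after seeing the data for their intergenic reads, with db/m replicate 3 assumed to vary like the db/db libraries). The fit with no filter repeats the main fit, because filterByExpr kept all genes, and adds no support of its own. The stricter filter removed Kdm4d. The count at an unadjusted p under 0.05, 3 with all libraries, was 5 with quality weights (12.8%, against 20.2% of all genes). With the erythroid covariate the count was 4 (10.3%, against 16% of all genes). It lay between 1 and 7 when 1 library was left out, with 6 without db/db replicate 3 and 7 without db/m replicate 1. Without db/db replicate 1, 2 or 4 or db/m replicate 3 or 4 it was 1 (2.56%). In those fits 10.7% to 15% of all genes were under 0.05. Without db/m replicate 2 the count was 3 (7.69%, against 12% of all genes). The 6 and 7 are 15.4% and 17.9% of the members, where 18.2% and 18.7% of all genes were under 0.05 in those fits. With the plasma cell covariate the 3 members (7.69%, against 10.1% of all genes) were Kdm3a, Kdm6b and Kdm8. The members' median was -0.027 after adding the plasma cell covariate, -0.018 with db/m replicates 1, 2 and 4 left out, and between -0.049 (without db/m replicate 4) and 0.039 when 1 library was left out. No paired analysis was possible because the replicate numbers follow accession order and the title prefixes each occur in 1 genotype. Kdm3a, Ezh1, Ezh2, Kmt2a, Kmt2c, Kdm5a, Kdm5c, Kdm7a, Kdm2b, Setd1b, Setd3, Setd8 and Ehmt2, 13 members, kept their sign in all 20 alternatives. The other 26 turned in at least 1, and for these the cause was not tested. Values that turned were Nsd1 0.020, Kdm4c 0.0021 and Setd5 0.0021 with upper-quartile scaling, and Nsd1 0.0010 with the stricter filter. They were Kdm6b 0.22, Nsd1 0.0052, Kdm4c 0.00014 and Kdm4d -0.39 with limma-voom, Nsd1 0.031, Suv39h2 -0.023 and Kdm8 0.11 with quality weights, and Kdm6b 0.22, Nsd1 0.00016 and Kdm4d -0.37 with the title prefix block. With the plasma cell covariate they were Kdm5b -0.056, Dot1l 0.15, Kdm6b 1.98, Kmt2d -0.069, Setd4 -0.13, Ehmt1 -0.34, Kdm4c 0.16, Kdm1a -0.25, Kmt2e 0.18, Kmt2b -0.14, Setd1a 0.19 and Setd6 -0.051. With the erythroid covariate they were Kdm1b 0.025, Setd4 -0.042, Suv39h2 -0.19, Setd7 0.095, Kdm4c 0.11, Kdm4a 0.032, Kmt2b -0.055, Setd6 -0.055 and Setd2 -0.025. With db/m replicates 1, 2 and 4 left out they were Dot1l 0.062, Kdm6b 1.99, Kmt2d -0.070, Setd4 -0.33, Kdm3b -0.050, Suv39h2 -0.095, Ehmt1 -0.19, Setd7 0.052, Kdm4c 0.29, Kdm4a 0.030, Kdm1a -0.16, Kmt2e 0.29, Kmt2b -0.12 and Setd6 -0.16.

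When 1 library was left out, log2 fold changes that turned ran from -0.032 to 0.11 for Ehmt1, -0.0029 to 0.074 for Kdm2a, -0.029 to 0.077 for Kdm3b, -0.029 to 0.16 for Kdm4b, -0.12 to 0.060 for Kdm4c, -0.54 to 0.81 for Kdm4d, -0.061 to 0.25 for Kdm6a, -0.37 to 0.23 for Kdm6b, -0.25 to 0.22 for Kdm8, -0.010 to 0.097 for Kmt2b, -0.069 to 0.14 for Kmt2d, -0.20 to 0.036 for Kmt2e, -0.076 to 0.056 for Nsd1, -0.13 to 0.074 for Setd1a, -0.022 to 0.25 for Setd2, -0.028 to 0.23 for Setd4, -0.096 to 0.083 for Setd5, -0.0050 to 0.14 for Setd6, -0.17 to 0.016 for Setd7, -0.22 to 0.045 for Suv39h1 and -0.083 to 0.11 for Suv39h2. Differences in log2 ratio that turned ran from -0.11 to 0.049 for Kdm4a to Kdm4c, -0.18 to 0.19 for Kdm5b to Kdm5a, -0.50 to 0.31 for Kdm6b to Kdm6a and -0.038 to 0.29 for Suv39h2 to Suv39h1. No pair passed with 1 CPM added to both genes or with 1 library left out, where 4 against 3 libraries cannot give a p below 0.0571. Other moves of over 1.5 times ran from -0.19 to -0.033 for Dot1l, -0.20 to -0.045 for Ehmt2, 0.035 to 0.16 for Kdm1a, -0.33 to -0.078 for Kdm1b, -0.20 to -0.075 for Kdm2b, -0.10 to -0.024 for Kdm4a, 0.037 to 0.29 for Kdm5a, 0.082 to 0.31 for Kdm5b, -0.27 to -0.13 for Kdm5c, 0.052 to 0.45 for Kdm7a, -0.21 to -0.050 for Setd3 and -0.31 to -0.097 for Setd8. Counting error weighs most on Kdm4d, the member with the fewest reads, 168 over the 8 libraries.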
